A study of Homo sapiens with 10 samples.

Results

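The genes described here are 38 that carry glucose from the cell surface to lactate or that are commonly induced when oxygen runs low, out of 58302 gene entries measured in KYSE-410 cells. They were chosen by name and known function, but with earlier results of these data known, so the choice was not independent of the data. By role, 4 are oxygen-sensing genes, 12 belong to hexose trapping and upper glycolysis, and 8 to lower glycolysis and lactate. Another 5 serve transport and pyruvate gating, and 9 are other hypoxia-induced genes. KYSE-410 is an established human line of esophageal squamous cell carcinoma. Cells were exposed for 48 h to one of a pair of inhibitors of SHIP2, a lipid phosphatase encoded by INPPL1. K149 was given at 2 µM (3 libraries) and AS1949490 at 20 µM (2 libraries), and each had its own untreated libraries with 0.1% DMSO, the solvent (3 and 2 libraries). The labels name no genetic change in any group, all 10 libraries come from 1 cell line, and the labels state neither the oxygen nor the glucose supply of the cultures. The doses differ, so values for the inhibitors stand side by side and their difference is between these treatments, not between compounds at matched dose.

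Glycolysis splits glucose into pyruvate, and lactate dehydrogenase turns pyruvate into lactate, which leaves the cell through monocarboxylate carriers. When oxygen is plentiful, prolyl hydroxylases mark the HIF alpha subunits for degradation. When oxygen falls the subunits persist and raise transcription of glucose carriers, most glycolytic enzymes, LDHA, PDK1, CA9 and VEGFA, and tumor cells often keep part of this program active in air.

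The libraries held an inferred 18.4 to 26.3 M reads assigned to genes, with the AS1949490 pair (26.3 and 26.2 M) deeper than its DMSO pair (18.4 and 20.8 M). Squamous markers summed to 1452 to 1895 CPM (each gene's reads relative to the total of its library) in every library, while 6 endothelial markers together reached at most 3.10 CPM. Fibroblast markers summed to 230.4 to 274.9 CPM in the K149 arm and 39.0 to 46.4 CPM in the AS1949490 arm. Most of that was LUM, which encodes the matrix proteoglycan lumican, at means of 222, 254, 14.2 and 25.1 CPM in DMSO and K149 of the K149 arm and DMSO and AS1949490 of the other arm. INPPL1 itself was at 102 to 120 CPM in DMSO and 166 to 185 with K149, and at 130 to 141 and 192 to 205 CPM in the other arm. K149 replicate 1 stood apart in MALAT1, a nuclear RNA, at 704 CPM against 153 and 148 in its replicates and 65.5 to 94.5 in DMSO. Below, a treatment effect of the genes described here that lost its call without a library is given with that library. Lost differences between the effects are given with the libraries or their number. Between the DMSO groups only the genes are named, and genes of the other lists are not covered.

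Of the 38 genes, 37 passed the filter for testing, which asked for a mean of 1 CPM or more in some group. SLC2A3, the high-affinity glucose carrier of neurons, did not: it was at 0, 0 and 0.05 CPM in DMSO and 0, 0.05 and 0.10 CPM with K149, and at 0.15 to 0.20 CPM in all 4 libraries of the AS1949490 arm. Its 3 named pseudogenes together had means of 17.1, 28.1, 12.5 and 23.9 CPM in the same 4 groups, so reads from near-identical copies may have been counted there. CA9 passed only through the K149 arm's DMSO libraries. Counts of calls below include CA9, as lower with K149, lower in the difference and higher in that DMSO. These CA9 calls are no support, since the filter let it in through the group where it was high.

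With K149, 17 of the 37 genes rose and 13 fell (limma on log2(CPM + 1), Benjamini-Hochberg adjusted p under 0.05). Over all 17837 genes tested 66.4% were called, 35.8% higher and 30.6% lower, so being called says little of these genes. Their median log2 fold was 0.12, beside 0.04 for all genes. With AS1949490, 21 rose and 4 fell, where 51.6% of all genes were called, 32.1% higher and 19.5% lower. The median was 0.20 beside 0.08. Of all AS1949490 calls 62.2% were higher, and 50.6% under median-of-ratios scaling, which left 16 of the genes higher and 5 lower. The calls lost there were ADM, KDM3A, P4HA2, PFKM and PGK1 (adjusted p = 0.102 to 0.327), and GAPDH joined the lower genes. Treated and DMSO libraries did not overlap for 18 of the genes higher and 13 lower with K149 (37.7% and 32.6% of all genes) and for 24 higher and 5 lower with AS1949490 (44.5% and 30.5%). The direct test of K149 effect against AS1949490 effect called 14 genes lower and 3 higher, where 40.4% of all genes were called, 25.3% lower and 15.1% higher.

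**Figure D1:**
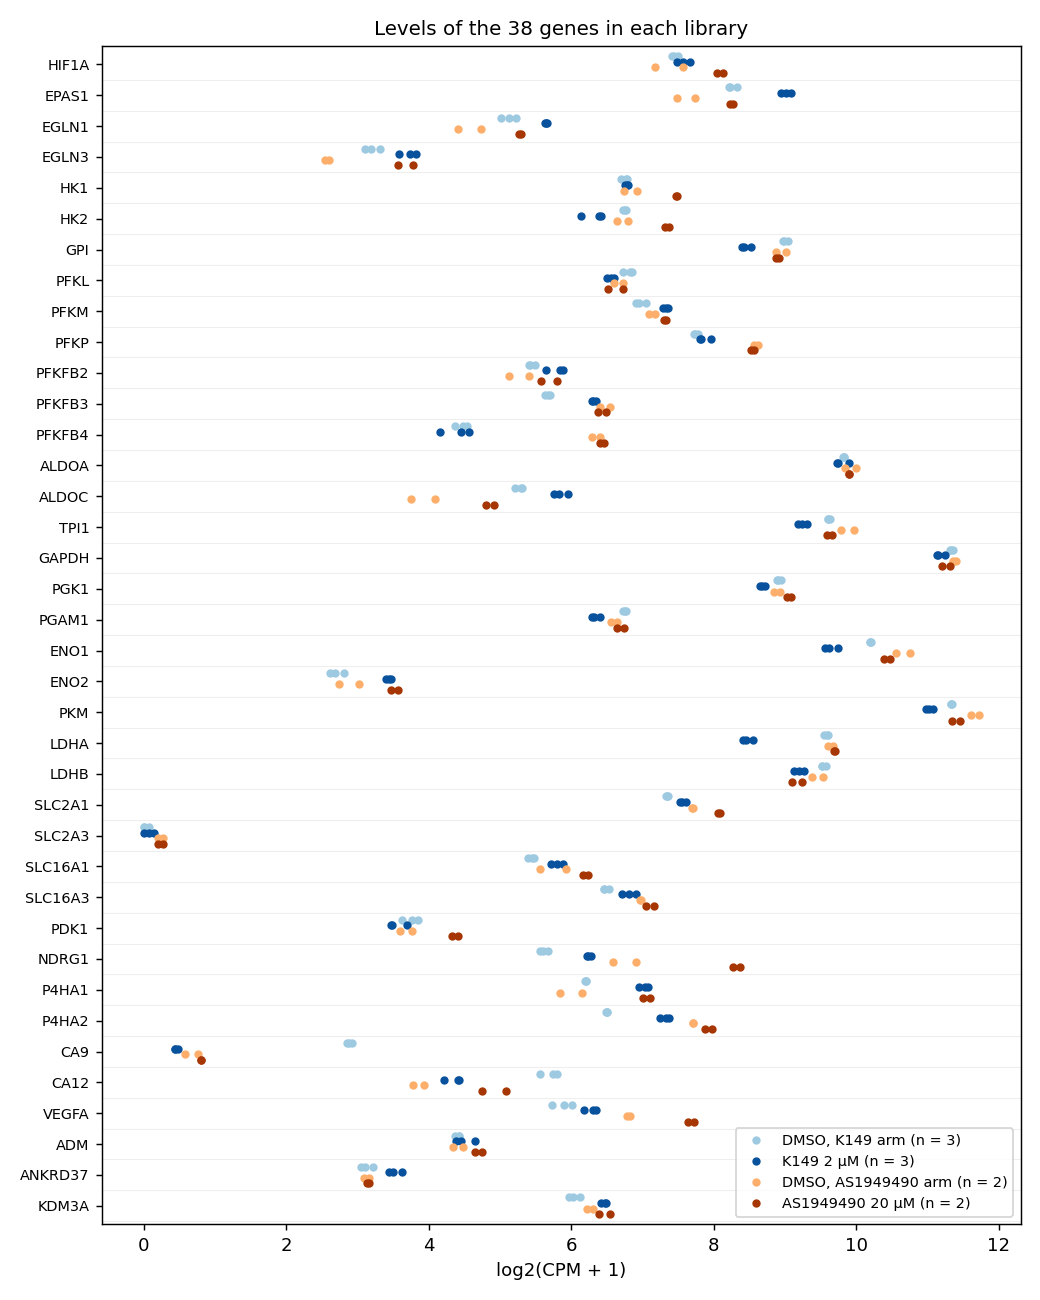
Level of each of the 38 genes as log2(CPM + 1) in every library, ordered by role, 1 point per library and 1 colour per group. CA9 is near 3 in the K149 arm's DMSO libraries and below 1 in every other library.

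In lower glycolysis, K149 lowered 7 of the 8 genes from GAPDH to lactate dehydrogenase and raised the other, ENO2, where 30.6% of all genes were lower and 35.8% higher. The median log2 fold was -0.32. With AS1949490 the same 8 had a median of -0.03, with 3 lower, 2 higher and 3 not called (19.5% and 32.1% of all genes lower and higher). Over the 17 enzyme genes from hexokinase to lactate dehydrogenase, K149 lowered 11 and raised 3 (median -0.25), and AS1949490 lowered 4 and raised 6 (median -0.02). Together these 17 held 1.13% to 1.14% of all CPM in DMSO and 0.891% to 0.967% with K149. In the AS1949490 arm they held 1.34% and 1.24% in DMSO and 1.15% and 1.21% with the inhibitor.

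LDHA (ENSG00000134333, chromosome 11, 18394388 to 18408425, plus strand, hg38), the muscle-type subunit of lactate dehydrogenase, fell furthest of these. It was at 748, 771 and 781 CPM in DMSO and at 351, 374 and 339 CPM with K149. Every K149 library was far below every DMSO library. The log2 fold was -1.11 ± 0.05 (SE, n = 3 and 3, adjusted p = 1.22e-10), a fall to 0.463 of the DMSO mean. With AS1949490 it was at 832 and 827 CPM beside 818 and 778 in DMSO, a log2 fold of 0.06 ± 0.06 (n = 2 and 2, adjusted p = 0.43). The difference between the effects was -1.17 ± 0.07 (adjusted p = 3.79e-08), and both calls held under every alternative run. LDHB, the heart-type subunit, fell in both arms, by -0.33 ± 0.06 with K149 (adjusted p = 0.000126) and -0.29 ± 0.07 with AS1949490 (0.00327, and 0.0509 without AS1949490 replicate 1). The LDHA to LDHB ratio thus went from 1.03 to 0.604 with K149 and from 1.13 to 1.44 with AS1949490. Neither pair of groups overlapped, and the exact two-sided permutation p was 0.1 for 3 against 3 and 0.333 for 2 against 2, the smallest each design allows.

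ENO1, the ubiquitous enolase, stood at 1183, 1174 and 1175 CPM in DMSO and at 782, 861 and 755 with K149. No K149 library reached its DMSO libraries, and the log2 fold was -0.56 ± 0.06 (adjusted p = 2.21e-06). With AS1949490 it went from 1733 and 1504 to 1345 and 1422 CPM, a fold of -0.22 ± 0.07 (0.0221). That call was lost without AS1949490 replicate 1 (adjusted p = 0.138) or without DMSO replicate 1 of that arm (0.212). ENO2, the neuronal enolase and a known hypoxia-induced isoform, went the other way in both arms at a far lower level. It rose from 5.45, 5.996 and 5.10 to 9.89, 10.04 and 9.54 CPM with K149 (0.74 ± 0.09, adjusted p = 1.19e-05) and from 7.09 and 5.70 to 10.9 and 10.04 with AS1949490 (0.64 ± 0.12, 0.000519). Per kilobase of exon ENO2 was still at 2.30 CPM beside 151 for ENO1 with K149.

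The remaining enzymes of this stretch are high in these cells. GAPDH, PKM (pyruvate kinase), PGK1 (phosphoglycerate kinase) and PGAM1 (phosphoglycerate mutase) all fell with K149, by -0.15 to -0.42 in log2. PGAM1 was at 105, 107 and 109 CPM in DMSO and 78.9, 83.6 and 77.5 with K149 (-0.42 ± 0.05, adjusted p = 7.44e-06), with no overlap. With AS1949490 its 99.0 and 106 CPM lay across the DMSO values of 99.1 and 93.5 (0.09 ± 0.06, adjusted p = 0.262), and the difference was -0.50 ± 0.08 (0.000258). PKM fell in both, from means of 301 to 244 CPM per kilobase with K149 and from 379 to 316 with AS1949490 (-0.31 ± 0.05 and -0.26 ± 0.06, adjusted p = 0.000107 and 0.00277).

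GAPDH had the smallest called fall with K149 (-0.15 ± 0.05, adjusted p = 0.0135), which was not called without K149 replicate 1 (0.0516) or replicate 3 (0.0526). With AS1949490 its -0.12 ± 0.06 missed the threshold (0.103) but passed under median-of-ratios scaling (-0.21, 0.0245). GAPDH shares 14.2% of its exon bases with AC006064.4 on the opposite strand, which was at 1182, 1065, 1262 and 1117 CPM in the 4 groups, and strand use in counting is not given in the sources used here. PGK1 fell from 475, 477 and 491 to 409, 423 and 400.2 CPM with K149 (-0.23 ± 0.04, adjusted p = 0.000446). With AS1949490 it was at 521 and 541 CPM beside 488 and 461, a called rise of 0.16 ± 0.05 (0.0222). That rise was not called without AS1949490 replicate 2 (0.134), without DMSO replicate 2 of that arm (0.105) or under median-of-ratios scaling (0.08, 0.327), while the difference between the effects was -0.39 ± 0.07 (0.000598).

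**Figure D2:**
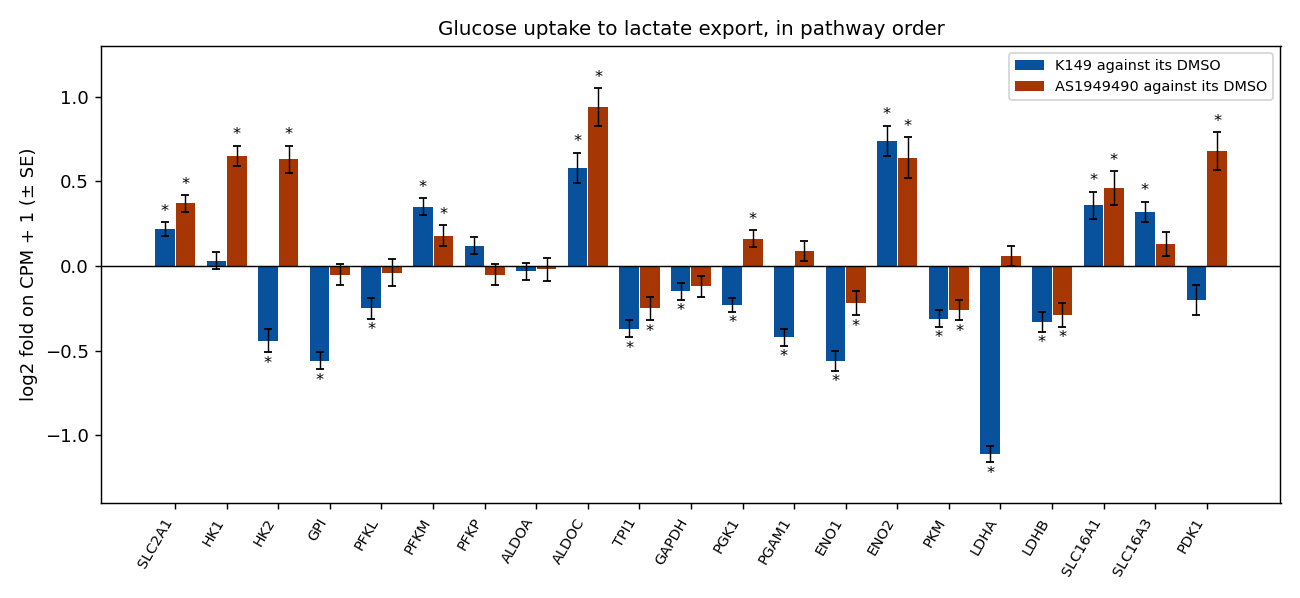
Log2 fold on CPM + 1 (bars, ± SE) of 21 genes from glucose uptake to lactate export and the pyruvate gate, for K149 (n = 3 and 3) and AS1949490 (n = 2 and 2), each against its own DMSO. Asterisks mark adjusted p under 0.05. LDHA falls by 1.11 with K149 and stands at 0.06 with AS1949490, and HK2 points in opposite directions.

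Upper glycolysis split by isoenzyme. Of its 12 genes, K149 raised ALDOC, PFKFB2, PFKFB3 and PFKM and lowered GPI, HK2, PFKL and TPI1, for a median log2 fold of 0.0. AS1949490 raised 5 (ALDOC, HK1, HK2, PFKFB2, PFKM) and lowered TPI1, for a median of 0.03. Among all genes, K149 raised 35.8% and lowered 30.6%, and AS1949490 raised 32.1% and lowered 19.5%. HK2 (ENSG00000159399, chromosome 2, 74833981 to 74893359, plus strand), the inducible hexokinase that traps glucose as its phosphate, was at 107, 108 and 105 CPM in DMSO. It was at 82.5, 69.4 and 84.5 CPM with K149, all below DMSO (-0.44 ± 0.07, adjusted p = 8.11e-05). In the other arm it was at 99.1 and 110 CPM in DMSO and 165 and 159 with AS1949490, both above (0.63 ± 0.08, 5.1e-05). HK2 thus fell with one treatment and rose with the other, a difference of -1.07 ± 0.11 (4.76e-06), and each of these calls held under every alternative run.

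HK1, the constitutive hexokinase, was at 108, 103 and 109 CPM in DMSO and 110, 107 and 110 with K149. The ranges overlapped and the log2 fold was 0.03 ± 0.05 (adjusted p = 0.649). With AS1949490 it rose from 120 and 106 to 177 and 178 CPM (0.65 ± 0.06, 4.42e-06), so the HK2 to HK1 ratio there was 0.914 beside 0.926 in DMSO. With K149 that ratio went from 0.999 to 0.723 (exact permutation p = 0.1, the smallest possible). GPI, which isomerizes glucose 6-phosphate, fell from 529, 506 and 503 to 335, 366 and 344 CPM with K149 (-0.56 ± 0.05, 3.51e-07). With AS1949490 it was at 470 and 481 beside 514 and 471 (-0.05 ± 0.06, 0.529), and the difference was -0.51 ± 0.08 (0.000209).

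Phosphofructokinase, the committed step, has 3 subunit genes. With K149 the muscle subunit PFKM rose (0.35 ± 0.05, adjusted p = 2.59e-05), the liver subunit PFKL fell (-0.25 ± 0.06, 0.00353), and the platelet subunit PFKP, the most abundant per kilobase in all 4 groups, was at 0.12 ± 0.05 (0.0512). PFKP was called without K149 replicate 3 (0.15, 0.0303) or without either DMSO library of the AS1949490 arm (0.0381 each). The PFKM to PFKL ratio went from 1.13 to 1.71, with no overlap (exact permutation p = 0.1). With AS1949490 only PFKM was called, at 0.18 ± 0.06 (0.0258). That call was lost without either AS1949490 library (0.0769 and 0.117) or DMSO replicate 2 of the arm (0.115). PFKM shares 8.6% of its exon bases with SENP1 on the opposite strand, which fell with K149 from 61.5 to 32.8 CPM.

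PFKFB2, PFKFB3 and PFKFB4 make and break fructose 2,6-bisphosphate, the activator of phosphofructokinase. PFKFB3 was at 51.0, 48.6 and 50.1 CPM in DMSO and 77.6, 78.0 and 80.3 with K149. These do not overlap (0.65 ± 0.05, adjusted p = 1.94e-07). In the AS1949490 arm DMSO was already at 83.7 and 92.7 CPM and the inhibitor at 88.4 and 82.1 (-0.05 ± 0.07, 0.585). PFKFB4 was called with neither inhibitor (-0.07 ± 0.09 and 0.08 ± 0.11, adjusted p = 0.506 and 0.557). It was at 16.8 to 22.6 CPM in the K149 arm and 77.4 to 87.4 in the other. PFKFB2 rose in both (0.36 ± 0.09 and 0.42 ± 0.11, 0.00255 and 0.00476), in the second case not without DMSO replicate 1 (0.0512) or AS1949490 replicate 1 (0.0693).

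In aldolase, too, the minor isoform rose. ALDOA, the muscle-type form, was called with neither inhibitor (-0.03 ± 0.05 and -0.02 ± 0.07, adjusted p = 0.66 and 0.839). ALDOC, the brain-type form, rose from 38.6, 38.4 and 35.9 to 56.1, 61.1 and 53.1 CPM with K149 (0.58 ± 0.09, 4.37e-05) and from 16.1 and 12.4 to 27.0 and 29.1 with AS1949490 (0.94 ± 0.11, 1.24e-05). The ALDOC to ALDOA ratio stayed small, moving from 0.0426 to 0.065 and from 0.0157 to 0.0304. TPI1, which interconverts the triose phosphates, fell in both (-0.37 ± 0.05 and -0.25 ± 0.07, adjusted p = 3.97e-05 and 0.0066), the latter not without AS1949490 replicate 1 (0.061) or DMSO replicate 1 of that arm (0.0716).

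Of the 4 tested genes of transport and pyruvate gating, 3 rose with each inhibitor, but not the same 3. Among all genes, 35.8% were called higher with K149 and 32.1% with AS1949490. SLC2A1, the basal glucose carrier GLUT1, was at 161, 163 and 160 CPM in DMSO and 184, 187 and 194 with K149 (0.22 ± 0.04, adjusted p = 0.00039). In the other arm it was at 208 and 207 in DMSO and 267 and 271 with AS1949490 (0.37 ± 0.05, 6.41e-05). All treated libraries exceeded their DMSO libraries. The lactate carrier SLC16A1 (MCT1) rose in both (0.36 ± 0.08 and 0.46 ± 0.10, 0.00124 and 0.0018). SLC16A3 (MCT4), the hypoxia-induced lactate exporter, rose with K149 (0.32 ± 0.06, 0.000218) and was at 0.13 ± 0.07 with AS1949490 (0.124). The difference was not called (0.19 ± 0.09, adjusted p = 0.116).

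PDK1 phosphorylates pyruvate dehydrogenase and so keeps pyruvate out of mitochondria. It was at 11.3, 12.6 and 13.4 CPM in DMSO and 10.1, 10.2 and 12.0 with K149, overlapping ranges (-0.20 ± 0.09, adjusted p = 0.0721). Without K149 replicate 3 (0.0251) or DMSO replicate 1 (0.0391) the fall was called. With AS1949490 PDK1 rose from 11.1 and 12.5 to 20.2 and 19.0 CPM (0.68 ± 0.11, 0.000229), and the difference was -0.88 ± 0.14 (0.000298).

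Of the 4 oxygen-sensing genes, K149 raised 3 (median log2 fold 0.52) and AS1949490 raised all 4 (median 0.71). Among all genes, 35.8% were called higher with K149 and 32.1% with AS1949490. EPAS1, which encodes HIF-2 alpha, was at 299, 297 and 319 CPM in DMSO and 518, 490 and 541 with K149 (0.76 ± 0.06, adjusted p = 1.41e-07). In the other arm it went from 178 and 212 to 309 and 299 CPM (0.64 ± 0.08, 1.93e-05), so both effects were called and did not overlap with DMSO. HIF1A, which encodes HIF-1 alpha, was at 180, 170 and 173 CPM in DMSO and 189, 179 and 203 with K149, a fold of 0.13 ± 0.08 that was not called (0.183). It was called at 0.13 without either DMSO library of the AS1949490 arm (0.0381 and 0.0384), through the shared estimate of spread. With AS1949490 HIF1A rose from 144 and 189 to 281 and 263 CPM (0.72 ± 0.10, 6.2e-05), and the difference between effects was -0.59 ± 0.13 (0.00237). The EPAS1 to HIF1A ratio therefore went from 1.75 to 2.71 with K149 (exact permutation p = 0.1) and was 1.18 and 1.12 in the other arm (0.667).

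EGLN1 and EGLN3 encode prolyl hydroxylases that mark HIF alpha subunits, and are themselves raised by HIF in a feedback. EGLN1 rose in both (0.52 ± 0.08 and 0.71 ± 0.10, adjusted p = 5.31e-05 and 5.89e-05). EGLN3 was at 7.65, 8.10 and 8.95 CPM in DMSO and 10.9, 13.1 and 12.3 with K149 (0.51 ± 0.10, 0.000344). It went from 5.05 and 4.85 to 12.8 and 10.9 CPM with AS1949490 (1.11 ± 0.12, 7.64e-06), a larger rise by 0.60 ± 0.15 in log2 (0.00653). Both arms reached nearly the same treated level, means of 12.1 and 11.8 CPM, from unlike DMSO means of 8.23 and 4.95 CPM.

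**Figure D3:**
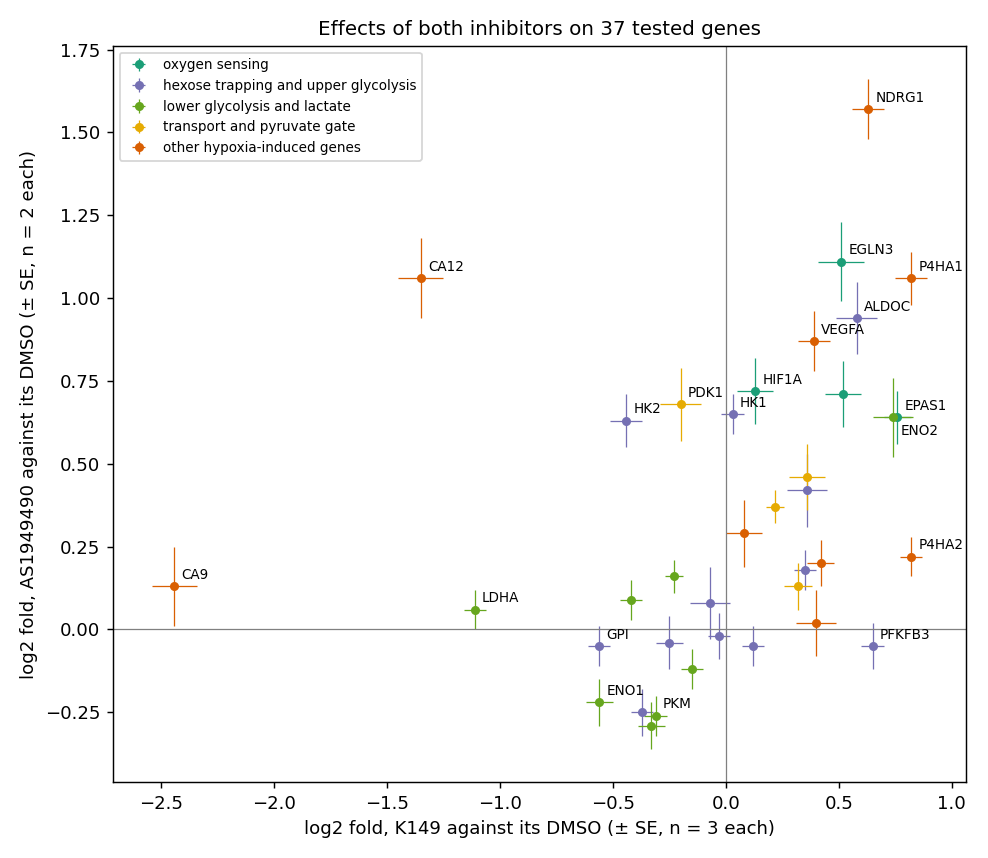
Log2 fold with K149 (horizontal, ± SE) against log2 fold with AS1949490 (vertical, ± SE) for the 37 tested genes, coloured by role. The arms share no library. CA12 lies far to the upper left, at -1.35 and 1.06, and NDRG1 is highest at 1.57.

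Of the 9 other hypoxia-induced genes, K149 raised 6 and lowered 2, CA12 and CA9 (35.8% and 30.6% of all genes). The CA9 call is no support, given how CA9 passed the filter. AS1949490 raised 7 (32.1% higher and 19.5% lower). NDRG1, VEGFA, P4HA1, P4HA2 and KDM3A were called higher in both arms. NDRG1, a stress-induced gene with hypoxia-responsive transcription, was at 47.5, 50.02 and 46.2 CPM in DMSO and 74.6, 73.6 and 76.4 with K149 (0.63 ± 0.07, adjusted p = 3.75e-06). In the other arm it was at 120 and 94.9 in DMSO and 331 and 309 with AS1949490 (1.57 ± 0.09, 5.82e-08), 2.98 times the DMSO mean. The rise with AS1949490 was the larger, by 0.94 ± 0.11 (2.41e-05). VEGFA, the angiogenic growth factor, went from 63.8, 59.0 and 52.1 to 78.4, 71.4 and 80.3 CPM with K149 (0.39 ± 0.07, 0.00024). With AS1949490 it went from 109 and 112 to 211 and 198 CPM (0.87 ± 0.09, 4.68e-06). The difference was -0.48 ± 0.11 (0.0038).

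P4HA1 and P4HA2 are the catalytic subunits of collagen prolyl 4-hydroxylase. P4HA1 was at 72.2, 73.2 and 72.8 CPM in DMSO and 134, 131 and 122 with K149 (0.82 ± 0.07, adjusted p = 1.81e-07). In the other arm it was at 56.6 and 69.9 in DMSO and 136 and 128 with AS1949490 (1.06 ± 0.08, 9.1e-07). Both arms reached nearly the same treated level, and the difference was not called (-0.24 ± 0.11, 0.0961), although it was without DMSO replicate 2 of the AS1949490 arm (-0.39, 0.00236). P4HA2 was at 89.55, 88.6 and 89.45 CPM in DMSO and 160, 165 and 151 with K149 (0.82 ± 0.05, 4e-09). In the AS1949490 arm DMSO already stood at 209 and 208 CPM, and 251 and 235 with the inhibitor (0.22 ± 0.06, 0.00729, and 0.0874 without AS1949490 replicate 1). The K149 effect on P4HA2 was larger by 0.60 ± 0.08 (3.45e-05).

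CA9 and CA12 encode carbonic anhydrases of the cell surface that handle the acid that glycolysis exports. CA9 (ENSG00000107159, chromosome 9, 35673856 to 35681159, plus strand) was at 6.20, 6.596 and 6.40 CPM in DMSO and 0.35, 0.35 and 0.40 with K149, 17.4 times lower by mean CPM. In the AS1949490 arm it was at 0.50 and 0.70 CPM in DMSO and 0.749 in both treated libraries. CA9 was thus above 1 CPM only in the K149 arm's 3 DMSO libraries. On the log2(CPM + 1) scale, which understates a change this low, the K149 fold was -2.44 ± 0.10 and the AS1949490 fold 0.13 ± 0.12. These are given as a description, with no test, since CA9 passed the filter only through the DMSO group where it was high.

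CA9 shares 38.5% of its exon bases with ARHGEF39 on the opposite strand, and its values are uncertain for that reason. ARHGEF39 fell with K149 too, from a mean of 30.02 to 6.80 CPM, and was at 19.4 and 13.9 CPM in the other arm, where CA9 was below 1 CPM. The part of the shared bases in the CA9 values was not tested. CA12 (ENSG00000074410, chromosome 15, 63321378 to 63382161, minus strand) shares no exon base with another gene. It was at 54.6, 46.4 and 52.5 CPM in DMSO and 20.4, 17.5 and 20.4 with K149 (-1.35 ± 0.10, adjusted p = 3.51e-08). In the other arm it was at 12.7 and 14.3 in DMSO and 33.0 and 25.8 with AS1949490 (1.06 ± 0.12, 1.27e-05). CA12 was therefore 2.63 times lower in one arm and 2.18 times higher in the other by mean CPM, and the treated levels of both arms lay between the DMSO levels. The difference of -2.41 ± 0.15 (3.93e-08) held under every alternative run.

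KDM3A, a histone demethylase, rose with K149 (0.42 ± 0.06, adjusted p = 3.2e-05) and with AS1949490 (0.20 ± 0.07, 0.036). The latter was lost without AS1949490 replicate 1 (0.299), DMSO replicate 1 of that arm (0.159) or DMSO replicate 1 of the K149 arm (0.0516). ANKRD37 rose with K149 from 8.30, 7.595 and 7.30 to 9.84, 11.4 and 10.3 CPM (0.40 ± 0.09, 0.000982) and was at 0.02 ± 0.10 with AS1949490 (0.884). It shares 35.2% of its exon bases with UFSP2 on the opposite strand, which was at 30.2 CPM in both groups of the K149 arm, so its values are uncertain. ADM, which encodes the vasodilator adrenomedullin, was called with AS1949490 (0.29 ± 0.10, 0.0225, and 0.139 without AS1949490 replicate 1 or 0.112 without DMSO replicate 2). The K149 value was 0.08 ± 0.08 (0.36) and the difference was not called (-0.20 ± 0.12, 0.21).

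**Figure D4:**
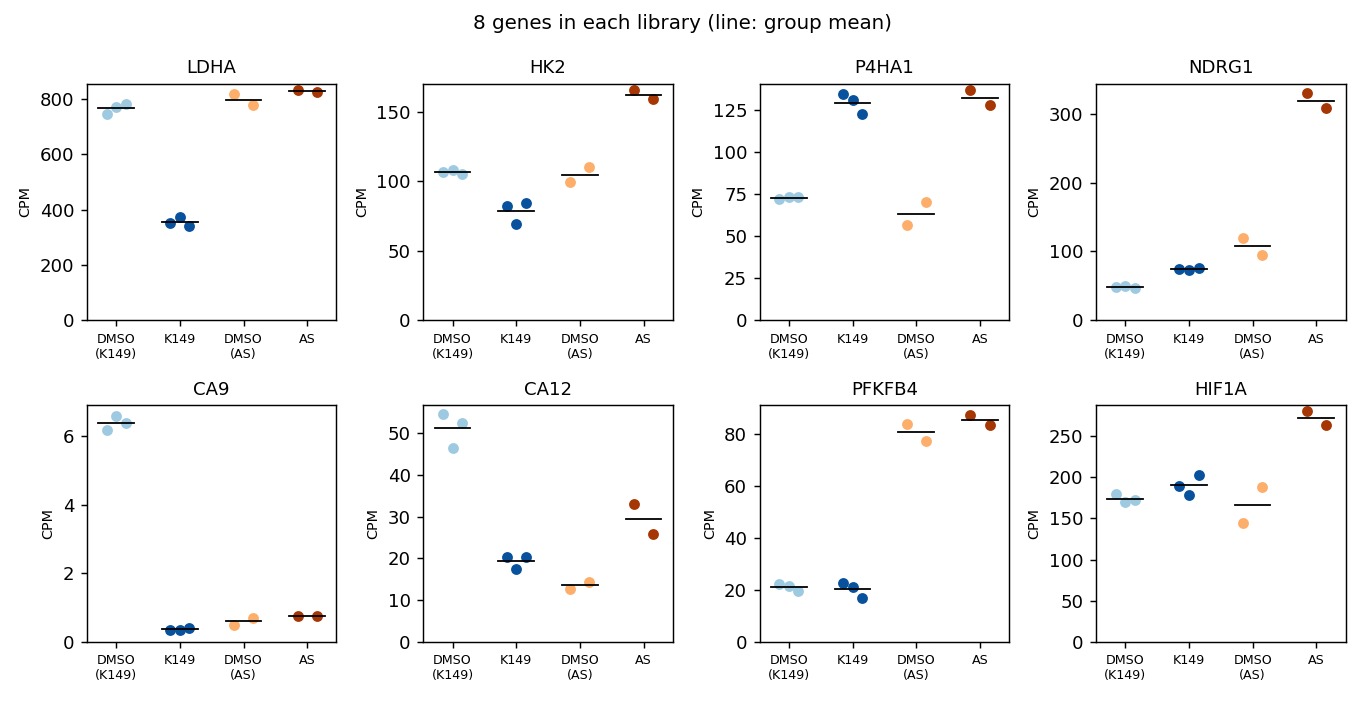
CPM in every library (points) and group means (lines) for 8 genes, each panel with its own axis from 0. LDHA drops with K149 alone, P4HA1 rises in both arms, CA12 moves in opposite directions, and PFKFB4 differs by arm at 21 and 81 CPM in DMSO.

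The DMSO libraries of the arms were not alike for these genes. Of 37 genes, 8 were higher and 14 lower in the DMSO of the K149 arm than in that of the AS1949490 arm, where 66.2% of all genes were called, 37.1% higher and 29.1% lower. The libraries did not overlap for 8 higher and 16 lower, beside 42.5% and 33.9% of all genes. Of these 22 calls, 17 held under every alternative run, and P4HA1, PGAM1, PFKM, SLC16A1 and KDM3A each lost theirs under some. The arms are separate sets of libraries, so arm and library set cannot be told apart. CA12 was 3.78 times higher by mean CPM in the K149 arm's DMSO (1.84 ± 0.11, adjusted p = 5.76e-09) and ALDOC higher by 1.35 ± 0.10 in log2 (3.76e-08). PFKFB4 was 3.83 times lower (-1.89 ± 0.10, 2.4e-09), P4HA2 lower by -1.22 ± 0.05 (3.41e-10) and NDRG1 by -1.14 ± 0.08 (3.78e-08). CA9 stood 10.7 times higher by mean CPM in the K149 arm's DMSO, given with no test for the reason above. LDHA, HK2 and GPI, which responded differently to the treatments, were not called between the DMSO groups (-0.06 ± 0.05, 0.03 ± 0.08 and 0.06 ± 0.06, adjusted p = 0.351, 0.75 and 0.377), although edgeR on inferred reads called LDHA lower (-0.13, 0.0471). HIF1A, HK1, PDK1, PGK1 and ANKRD37, whose effects also differed, were not called there either, although some alternatives called HK1 and HIF1A. Called there were VEGFA (-0.92 ± 0.08, adjusted p = 2.39e-07), PFKFB3 (-0.81 ± 0.06, 7.44e-08), EGLN3 (0.63 ± 0.11, 0.000147), ENO1 (-0.46 ± 0.07, 4.87e-05) and PGAM1 (0.15 ± 0.06, 0.0305). Their effects differed too, as did those of CA12, P4HA2 and NDRG1 above. These contrasts use the same DMSO libraries as the treatment effects and are given side by side only.

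Promoter letters are shown for 6 genes that carry these results: LDHA and CA9, which were lower with K149, HK2, PGK1 and CA12, called in opposite directions, and P4HA1, which rose in both. Each is the 250 bases before an annotated start (RefSeq, GRCh38.p14), 5′ to 3′ on the gene's strand. For LDHA and HK2 it is the first along the chromosome of 2 tabulated starts. Capitals mark ACGTG and GCGTG, the cores of hypoxia response elements, on either strand, so that CACGT and CACGC are matches on the other strand and CACGTG holds ACGTG on both.
LDHA, chr11:18394313-18394562, plus strand: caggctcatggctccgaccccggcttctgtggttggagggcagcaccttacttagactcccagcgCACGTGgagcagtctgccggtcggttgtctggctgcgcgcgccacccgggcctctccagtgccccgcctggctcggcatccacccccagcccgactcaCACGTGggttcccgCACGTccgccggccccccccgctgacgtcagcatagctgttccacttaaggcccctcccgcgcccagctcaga
CA9, chr9:35673678-35673927, plus strand: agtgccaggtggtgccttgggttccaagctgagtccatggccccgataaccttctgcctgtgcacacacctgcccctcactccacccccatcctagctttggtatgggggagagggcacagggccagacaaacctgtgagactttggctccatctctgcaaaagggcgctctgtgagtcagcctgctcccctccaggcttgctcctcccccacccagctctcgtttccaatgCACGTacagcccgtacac
HK2, chr2:74833877-74834126, plus strand: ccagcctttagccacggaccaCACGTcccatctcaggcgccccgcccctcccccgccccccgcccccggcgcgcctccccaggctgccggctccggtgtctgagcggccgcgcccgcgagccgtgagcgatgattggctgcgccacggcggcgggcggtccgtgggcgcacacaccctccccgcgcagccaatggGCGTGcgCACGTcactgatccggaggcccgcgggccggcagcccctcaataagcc
PGK1, chrX:78103998-78104247, plus strand: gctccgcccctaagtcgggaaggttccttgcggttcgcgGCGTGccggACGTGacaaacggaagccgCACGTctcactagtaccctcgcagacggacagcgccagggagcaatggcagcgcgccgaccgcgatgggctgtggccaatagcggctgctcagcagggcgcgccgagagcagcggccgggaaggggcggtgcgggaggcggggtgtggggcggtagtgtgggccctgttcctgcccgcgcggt
CA12, chr15:63381847-63382096, minus strand: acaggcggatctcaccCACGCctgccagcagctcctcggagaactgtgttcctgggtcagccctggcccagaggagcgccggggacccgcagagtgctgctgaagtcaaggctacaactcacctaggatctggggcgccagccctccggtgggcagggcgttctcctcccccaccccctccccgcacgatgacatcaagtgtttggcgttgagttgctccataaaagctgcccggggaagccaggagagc
P4HA1, chr10:73096867-73097116, minus strand: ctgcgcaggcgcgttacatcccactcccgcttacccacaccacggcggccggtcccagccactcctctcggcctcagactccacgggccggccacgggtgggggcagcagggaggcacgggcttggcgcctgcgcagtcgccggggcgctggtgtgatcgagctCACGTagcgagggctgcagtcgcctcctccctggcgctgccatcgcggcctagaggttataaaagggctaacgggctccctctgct

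The LDHA stretch holds 5 matches at 3 separate sites, since each CACGTG counts on both strands. HK2 and PGK1 hold 3 matches each, and CA9, CA12 and P4HA1 hold 1 each. These genes were picked by their response, and a link between matches and response was not tested. Promoter windows of 300 bases (250 before to 50 after the start) were tabulated for 33 of the 38 genes, 61 windows in all. Of these 61, 36.1% held ACGTG, beside 21.4% of all 35116 windows, 41.0% held GCGTG beside 36.5%, and 67.2% held either beside 48.4%. The E-box CACGTG, which includes ACGTG, was in 11.5% beside 7.26%. Windows of 1 gene can overlap, and a match is only a match of letters.

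Neighbouring steps of the pathway were read from gene lists chosen by function, also with earlier results of these data known. Of 14 tested enzymes that complete glycolysis and gluconeogenesis, K149 raised 5 and lowered 6 (median 0.0) and AS1949490 raised 4 and lowered 2 (median 0.05). PGAM2, the muscle phosphoglycerate mutase, rose by 1.85 ± 0.12 with K149 (adjusted p = 9.04e-09), and PCK2, the mitochondrial PEP carboxykinase, by 1.24 ± 0.08 with AS1949490 (1.94e-07). All of PGAM2's exon bases are shared with DBNL on the opposite strand, so its value is uncertain. Of 11 tested glucose and monocarboxylate carriers, 7 rose and 2 fell with K149 (median 0.43), and 6 rose and 1 fell with AS1949490 (median 0.47). Shares of all genes called higher and lower were 35.8% and 30.6% with K149 and 32.1% and 19.5% with AS1949490, here and for the lists that follow. Of 12 tested genes of pyruvate entry into mitochondria, 5 rose and 3 fell with K149, led by PDPR, PDP1 and PDP2, which encode subunits of the phosphatases that switch pyruvate dehydrogenase on (0.98 ± 0.07, 0.85 ± 0.10 and 0.75 ± 0.09, adjusted p = 4.96e-08, 3.19e-06 and 1e-05). With AS1949490 4 rose and 1 fell, among them PDK2, a kinase that switches it off (0.70 ± 0.12, 0.000336), and PDP2 (0.67 ± 0.12, 0.000371). PDK2 shares 38.6% of its exon bases with SAMD14 on the opposite strand and is uncertain. PDPR shares 19.6%, mainly with AC009060.1 on the opposite strand, and is uncertain too.

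Of 34 other tested HIF target genes, K149 raised 23 and lowered 7, and AS1949490 raised 23 and lowered 6. Of all genes, 35.8% were higher and 30.6% lower with K149, and 32.1% and 19.5% with AS1949490. The median log2 fold of these targets was 0.41 in each, beside 0.04 and 0.08 for all genes. DDIT4, an inhibitor of mTOR signaling, rose in both (1.15 ± 0.06 and 1.74 ± 0.07, adjusted p = 6.93e-10 and 6.26e-09), with 41.2% of its exon bases shared with its antisense gene DDIT4-AS1 and its values uncertain for that. STC2 led with K149 (1.56 ± 0.05, 6.25e-12) and VLDLR, a lipoprotein receptor, followed DDIT4 with AS1949490 (1.67 ± 0.10, 1.14e-07), while BHLHE40 fell there by -0.95 ± 0.07 (8.16e-07). Of 15 tested parts of the oxygen-sensing machinery beyond the 4 above, K149 raised 8 and lowered 1, and AS1949490 raised 5 and lowered 4. CITED2, which competes with HIF for its coactivators, rose by 1.00 ± 0.10 with K149 (9.05e-07), and ARNT, the partner of the HIF alpha subunits, by 0.66 ± 0.09 with AS1949490 (6.71e-05).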

How the data were processed

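The members and gene lists were chosen with earlier results of these data known. Libraries were made from total RNA with the Ovation Solo kit, per the labels' protocols. Alignment and counting tools named are STAR 2.5.3a and HTSeq, on hg38, per the submitters' processing notes. For annotation, strand use and counting rules, the sources used here give nothing. One table of CPM was deposited by the authors, for 58302 Ensembl IDs, of which 58039 matched GENCODE 29. Values were multiples of about 0.05 CPM (100.0% of low values within 0.05 of a step), from which reads were inferred to within 1 read. No source records that scaling.

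Limma 3.58.1 in R 4.3.3 (trend) was run on log2(CPM + 1) over all 10 libraries with 4 group means, for genes that reached a mean of 1 CPM in some group. Benjamini-Hochberg adjustment covered all 17837 genes, and the call threshold was 0.05. Each ± is an SE. Paralog ratios used exact two-sided permutation tests, 14 pairs in each of the 2 arms, unadjusted since none could reach the threshold. EdgeR 4.0.16 and DESeq2 1.42.0 on inferred reads were alternatives. The scripts were tested on simulated data. Named genes were all 38, and in each list up to 3 of the largest called changes at 5 CPM or more; some are not reported here. One DMSO library (K149 arm, replicate 3) has no arm in its title and was placed by its library name. The labels do not say that replicates were separate cultures, so p-values measure the spread between these samples. Replicates differed beyond sampling noise (chi-square per degree of freedom 1.45 to 8.83). In these bulk libraries, fewer expressing cells and less RNA per cell cannot be told apart.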

Additional observations from a re-analysis of the deposited data

Results flagged for a closer look

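For 17 of the 37 tested genes the effect of K149 at 2 µM differed from that of AS1949490 at 20 µM by the test of the difference itself (limma, adjusted p under 0.05), where 40.4% of all genes did. Doses differ, and the arms share no library. As K149 effect minus AS1949490 effect in log2, CA12 was at -2.41. CA9 was at -2.57, which is a description only, since CA9 passed the filter through the K149 arm's DMSO alone, where it was high. Among the enzymes, LDHA was at -1.17, HK2 at -1.07, HK1 at -0.62, GPI at -0.51, PGAM1 at -0.50, PGK1 at -0.39 and ENO1 at -0.34. At the pyruvate gate PDK1 was at -0.88. Among the oxygen-sensing genes EGLN3 was at -0.60 and HIF1A at -0.59. NDRG1 was at -0.94 and VEGFA at -0.48. PFKFB3, P4HA2 and ANKRD37 differed the other way, at 0.69, 0.60 and 0.38. The ENO1 difference was lost without DMSO replicate 2 (0.0501) or AS1949490 replicate 2 (0.0623) of the AS1949490 arm. The ANKRD37 difference was lost without any 1 of 8 of the 10 libraries, with adjusted p from 0.0501 to 0.109. The other 15 kept their calls under every alternative run. CA9 is among them, though its call is no support for the reason above.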

How the results depend on the processing

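Of the members' calls, 29 of 30 with K149, 16 of 25 with AS1949490, 15 of 17 for the difference and 17 of 22 between the DMSO groups held under every alternative run. All of these counts but that for AS1949490 include CA9, whose calls come through the filter and are no support. No called member changed sign. Leaving out 1 library at a time gave 17 to 19 members higher and 12 to 14 lower with K149, and 16 to 21 higher and 1 to 4 lower with AS1949490. Of the AS1949490 calls, 2 lower were left without DMSO replicate 1 and 1 without AS1949490 replicate 1. Where an arm was left with 1 library, that library was assumed to vary like the other groups. Members called higher in K149 effect minus AS1949490 effect numbered 3, and 5 under median-of-ratios scaling, 6 with edgeR and 6 with DESeq2. Leaving out 1 library, ratio changes in log2 that lay near 0 ran from -0.18 to 0.14 (HK2/HK1, AS1949490), -0.087 to 0.077 (PFKP/PFKL, AS1949490), -0.13 to 0.0072 (SLC16A3/SLC16A1, K149), -0.074 to 0.057 (EGLN3/EGLN1, K149) and -0.016 to 0.027 (P4HA2/P4HA1, K149). EGLN3/EGLN1 was 0.0023 with a pseudocount of 0.5. CA12/CA9 with K149 changed by 1.09 in log2 with the pseudocount of 1 and by -0.11 with a pseudocount of 5, so the sign reversed. In the K149-treated libraries CA9 lies below either pseudocount. With replicate number as a block, 17 members were higher and 13 lower with K149 and 18 and 4 with AS1949490, and 11479 and 8579 genes were called overall. Same-numbered libraries deviated together by correlations of 0.101, 0.046 and -0.012 in the K149 arm, so the numbers were not taken to pair them. In the AS1949490 arm the correlation was -0.242, and a crossed block, chosen after seeing the data, gave 21 higher and 4 lower. The replicate numbers used are those of the titles. In that arm the library names carry 1 and 3 for DMSO and 2 and 3 for AS1949490. By name, only replicate 2 of each thus shares a number. EdgeR called 11813 and 9210 genes, and limma 11837 and 9205. Values under 1 CPM rest on few reads.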

Other observations

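All 5 genes of the MondoA and ChREBP list were tested, and K149 raised 3 and lowered 2 where AS1949490 raised 2. With K149 35.8% of all genes were higher and 30.6% lower, and with AS1949490 32.1% and 19.5%. ARRDC4 and TXNIP, arrestins that MondoA induces when hexose phosphates build up and that limit glucose uptake, rose by 2.56 ± 0.09 and 2.44 ± 0.11 in log2 with K149 (limma adjusted p = 1.02e-11 and 2.24e-10). TXNIP went from a mean of 19.2 to 109 CPM, and ARRDC4 from 3.35 to 24.8 CPM. With AS1949490 they rose by 0.45 ± 0.11 and 0.41 ± 0.13 (0.00322 and 0.0214), from DMSO means of 16.7 CPM for ARRDC4 and 52.6 CPM for TXNIP. MLXIP, which encodes MondoA, rose by 0.91 ± 0.06 with K149 (8.93e-09). The test of the difference between the effects called these 3 genes higher with K149 and MLX, the partner of MondoA, lower. Of all genes, 15.1% and 25.3% were so called. MLX shares 18.1% of its exon bases, mainly with PSMC3IP on the opposite strand, so its value is uncertain.

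Side branches of glycolysis held calls in both directions, as did all genes tested. Shares of all genes called higher and lower were 35.8% and 30.6% with K149 and 32.1% and 19.5% with AS1949490. Of 7 tested pentose phosphate genes, K149 raised 3 and lowered 2, and AS1949490 raised 4 and lowered 2. RPIA, of the non-oxidative arm, fell in both (-0.83 ± 0.06 and -0.56 ± 0.08, adjusted p = 6.12e-08 and 6.02e-05). Of 12 tested genes of glycogen and hexosamine synthesis or breakdown, K149 raised 7 and lowered 2, and AS1949490 raised 9 and lowered 1. GFPT1, the first enzyme of hexosamine synthesis, rose in both (0.69 ± 0.08 and 0.97 ± 0.10, 5.41e-06 and 6.19e-06).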
